A study of Mus musculus with 12 samples.

Results

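The mRNA levels of 9 transcription factors of macrophages were followed in GFP(+) liver cells before and after bile duct ligation (BDL), an operation that stops the drainage of bile. The factors were *Nr1h3*, *Rxra*, *Spic*, *Spi1*, *Irf8*, *Maf*, *Zeb2*, *Cebpb* and *Bhlhe40*, chosen by gene name, and they made up 9 of the 16971 genes in the table. All 9 of the 9 passed a filter of at least 10 normalized counts summed over the libraries, as did 12889 genes in all.

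Every mouse was of the C57BL/6 background, carried 1 *Prom1CreERT2-nLacZ* allele and 1 *Rosa26Lsl-GFP* allele, and received tamoxifen 7 days before the operation. The *Prom1* promoter drives the tamoxifen-dependent recombinase, so that *Prom1*-expressing cells and their descendants keep a GFP mark. Livers were taken at day 0 (labelled sham, 3 libraries), BDL day 3 (3 libraries) and BDL day 14 (6 libraries labelled, 4 behind the deposited mean), and live GFP(+) cells of the nonparenchymal fraction were sorted for RNA-seq. The study describes adult mice of both sexes in each group, a day 0 taken before BDL, and the libraries as biological replicates.

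Macrophages are phagocytes that arise from the embryo or from blood monocytes, and Kupffer cells are those that reside in the liver sinusoids. PU.1, the product of *Spi1*, opens the enhancers that all macrophages share. LXRα (*Nr1h3*), a sterol-sensing nuclear receptor that binds DNA together with RXRα (*Rxra*), and SPIC (*Spic*), a relative of PU.1, then shape the Kupffer cell and iron-recycling programs. IRF8 directs monocytes and dendritic cells, c-MAF (*Maf*) and ZEB2 maintain resident macrophages, and C/EBPβ (*Cebpb*) and BHLHE40 act in inflammatory and proliferating macrophages.

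The sort was defined by the *Prom1* lineage, and its RNA was rich in macrophage transcripts in all 3 groups. *Csf1r*, the receptor for the macrophage growth factor CSF1, averaged 1360 normalized counts at day 0, 2140 on BDL day 3 and 1230 on BDL day 14. Triplets of values below keep this order. The progenitor and biliary markers *Prom1* (6.66, 0.956 and 1.76), *Epcam* (12.9, 4.97 and 7.69) and *Krt19* (21.5, 12.7 and 14.3) stayed far lower. *Spp1*, listed with them, was higher than these (459, 175 and 792), and so was the hepatocyte marker *Alb* (2440, 642 and 271). None of these counts is divided by gene length. The source labels name the cells as hepatic progenitors and their progeny. In such bulk RNA, fewer cells of a type and less RNA per cell cannot be told apart.

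The 250 bases before the start site are shown for the factors whose highest and lowest group means differed by more than 2-fold. The set of RefSeq promoters used here (GRCm38.p6) held an entry for 6 of the 9 factors. *Nr1h3*, *Spic*, *Rxra* and *Cebpb* were past 2-fold, and so was *Spi1*, which is named only. Capitals mark matches, on either strand, to 6 motifs that fit the factors' families. These were AGGAAGT for ETS factors such as PU.1, TGACTCA for AP-1, TTGCNNAA for C/EBP, AGGTCA for nuclear receptors, CACGTG for BHLHE40 and CACCTG for ZEB factors. Where the table lists several start sites, the first is used. The windows of *Nr1h3*, *Spic* and *Rxra* lie inside the span of their gene, so the start site used is not its outermost one. Each sequence runs 5′ to 3′ on the strand of its gene.
Nr1h3, chr2:91195117-91195366, minus strand: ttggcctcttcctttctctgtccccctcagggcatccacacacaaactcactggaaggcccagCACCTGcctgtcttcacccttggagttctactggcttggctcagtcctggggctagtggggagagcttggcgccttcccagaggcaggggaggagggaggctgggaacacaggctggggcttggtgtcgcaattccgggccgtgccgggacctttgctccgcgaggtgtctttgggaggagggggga
Spic, chr10:88683024-88683273, minus strand: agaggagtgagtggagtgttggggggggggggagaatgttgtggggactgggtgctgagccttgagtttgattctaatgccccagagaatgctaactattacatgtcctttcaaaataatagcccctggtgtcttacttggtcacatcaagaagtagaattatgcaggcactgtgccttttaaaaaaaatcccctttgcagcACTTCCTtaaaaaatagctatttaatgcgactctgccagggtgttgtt
Rxra, chr2:27676951-27677200, plus strand: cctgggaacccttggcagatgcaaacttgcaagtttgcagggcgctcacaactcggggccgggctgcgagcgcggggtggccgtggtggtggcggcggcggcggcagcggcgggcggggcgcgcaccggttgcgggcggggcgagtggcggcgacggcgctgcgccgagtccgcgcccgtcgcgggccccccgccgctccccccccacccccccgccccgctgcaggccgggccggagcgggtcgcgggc
Cebpb, chr2:167688665-167688914, plus strand: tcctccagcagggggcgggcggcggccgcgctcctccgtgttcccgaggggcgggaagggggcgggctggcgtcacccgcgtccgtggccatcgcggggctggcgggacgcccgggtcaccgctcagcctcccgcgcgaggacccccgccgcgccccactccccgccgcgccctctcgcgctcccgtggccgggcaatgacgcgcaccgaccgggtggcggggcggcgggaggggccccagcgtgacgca

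The *Spic* window held 1 ETS match, which reads on the opposite strand and lies 48 to 42 bases before the start. Such a match was in 7.80% of 27025 promoters, 1 for each gene. The *Nr1h3* window held 1 CACCTG, 187 to 182 bases before its start, which 17.1% of promoters hold. The *Rxra* and *Cebpb* windows, long runs of G and C, held none of the 6 motifs. TGACTCA was in 4.43% of promoters, TTGCNNAA in 9.55%, AGGTCA in 13.8% and CACGTG in 6.05%. A match is a description of the letters and no evidence of binding.

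On the mm10 build, 5 of the 9 factors lie on chromosome 2. *Spi1* (91082390 to 91115756, plus strand) and *Nr1h3* (91184061 to 91202834, minus strand) lie 68304 bases apart there. *Rxra* spans 27676440 to 27762957, *Zeb2* 44983632 to 45117395 and *Cebpb* 167688915 to 167690418 on the same chromosome. *Maf* (115682942 to 115707794) and *Irf8* (120736358 to 120756694) lie on chromosome 8, *Spic* (88674772 to 88685015) on chromosome 10 and *Bhlhe40* (108660629 to 108666925) on chromosome 6. Whether reads were counted by strand is not stated in the sources used here. *Irf8* lies inside the listed gene *Gm20388* (means of 26.6, 38.6 and 25.1 normalized counts), *Cebpb* shares 908 bases with *Tmem189* on the other strand (21.5, 68.6 and 65.5), and *Zeb2* overlaps its antisense gene *Zeb2os* (28.9, 49.0 and 47.2). Reads of such overlaps could fall to either gene.

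The values below are the authors' group means, and no value of a single named library was used. For each gene the table also gives the geometric mean over the 10 libraries and the value of whichever library was highest, without naming it. The distance between the arithmetic and geometric means sets how far libraries of a group can lie apart. From it came an estimate of the within-group SD on the log2 scale, which takes the 3 groups as equally variable, and a lower and an upper limit that every library of a group must lie between. Errors on log2 ratios are SE from that SD. The median within-group SD was 0.48 for the 9 factors and 0.58 for all genes kept. For the genes kept with a mean of at least 24 normalized counts it was 0.39. A gene was called past 1.5-fold by its group means. Its groups were called not overlapping only where no set of library values that fits the table would let them overlap.

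At BDL day 3, 5 of the 9 factors were past 1.5-fold above day 0, namely *Spi1*, *Bhlhe40*, *Irf8*, *Rxra* and *Nr1h3*, against 19.2% of all genes. Only *Maf* was past 1.5-fold lower, against 29.2% of all genes, and *Spic*, *Zeb2* and *Cebpb* were within it. These shares include genes of low counts. Of the 2474 genes higher at BDL day 3, 1672 had a mean of at least 10 normalized counts, as all 9 factors did. Of the 3760 lower ones, 1096 did, so lower genes outnumbered higher ones only with low counts included. The median log2 ratio of the 9 was 0.74, and that of all genes was -0.02. After quantile normalization of the group means, 2 were higher (*Bhlhe40* at 0.89 and *Irf8* at 0.59) and 1 lower, with *Spi1* at 0.53, *Rxra* at 0.43 and *Nr1h3* at 0.32. Without the highest library of a gene, where it could be placed, 3 were higher. The median of the 9 was 0.32 in the former case and turned to -0.07 in the latter. At BDL day 14 against day 0, 2 factors were higher (*Irf8* and *Bhlhe40*, background 21.2%) and 3 lower (*Nr1h3*, *Spic* and *Cebpb*, background 28.8%), with a median of -0.12 against -0.04 for all genes. From BDL day 3 to day 14, 1 factor was higher (*Maf*, background 21.2%) and 5 were lower (*Nr1h3*, *Spic*, *Cebpb*, *Rxra* and *Spi1*, background 19.7%), with a median of -1.08. All 3 comparisons share groups, so their counts are not independent.

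**Figure D1:**
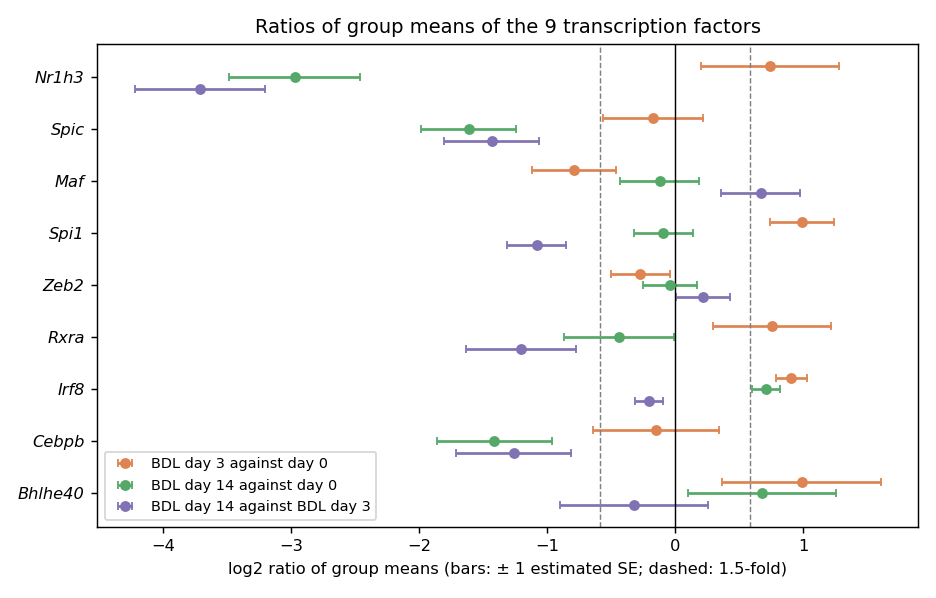
Log2 ratios of the group means of the 9 factors (x axis) in the 3 comparisons, one row for each gene, with bars of 1 estimated SE and dashed lines at 1.5-fold. *Nr1h3* lies farthest left, at -2.97 and -3.71 for BDL day 14 against day 0 and BDL day 3, while *Zeb2* lies inside the dashed lines in all 3 comparisons.

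Non-overlap of the groups could be shown for 5 of the 27 pairs of factor and comparison. *Irf8* was higher than day 0 on BDL day 3 (background 2.86%) and on BDL day 14 (3.06%). *Nr1h3* on BDL day 14 was below day 0 (background 3.30%) and, with *Spic*, below BDL day 3 (2.21%). No factor was shown to be lower at BDL day 3 (2.43% of all genes) or higher on BDL day 14 than at BDL day 3 (1.63%). For groups that do not overlap, the two-sided exact permutation test gives p = 0.0571 with 3 libraries against 4 and p = 0.1 with 3 against 3. These unadjusted values are the smallest that the group sizes allow, so no comparison could reach 0.05. For the other 22 pairs the table leaves overlap possible, which does not show that the groups overlapped.

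**Figure D2:**
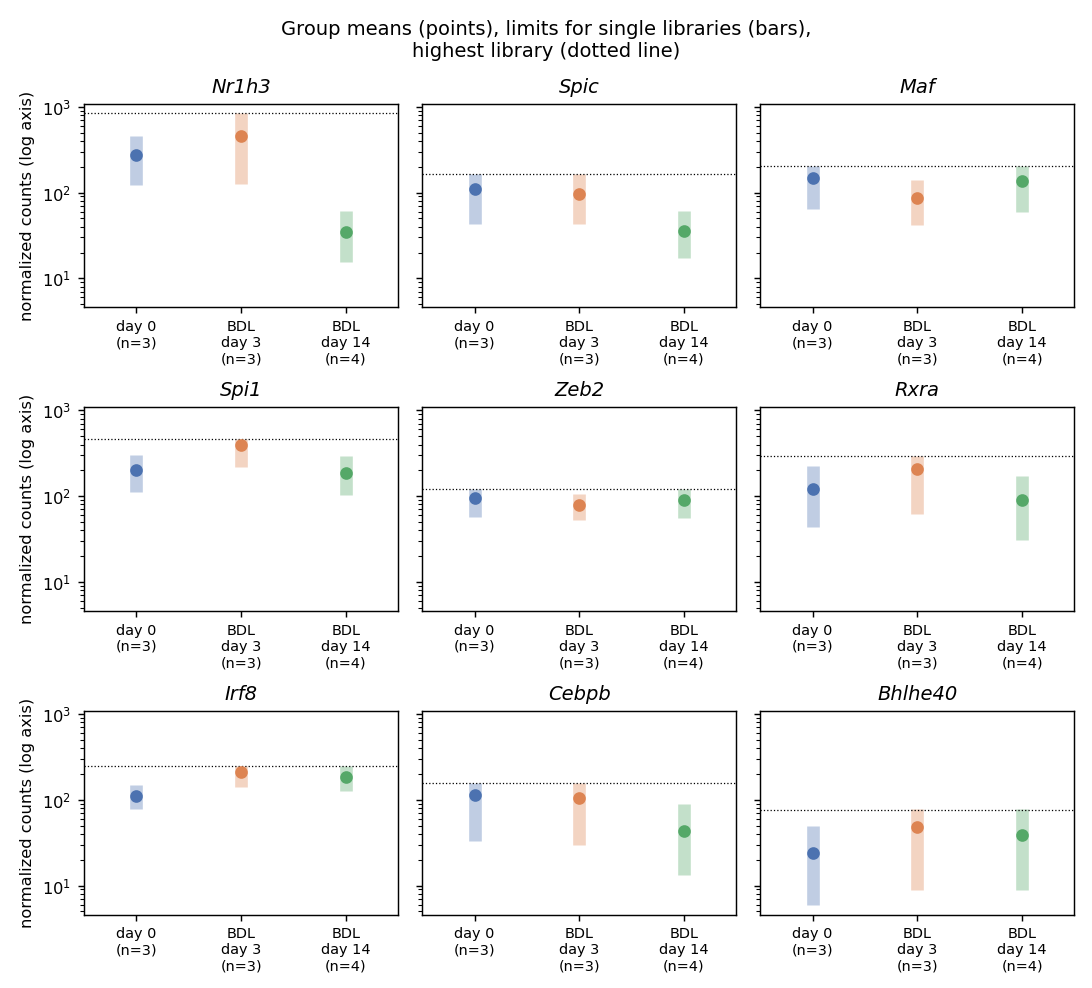
Group means of the 9 factors (points) at day 0, BDL day 3 and BDL day 14, with the limits between which each library must lie (bars) and the highest library (dotted line), in normalized counts on a log axis. The BDL day 14 bar of *Nr1h3* ends at 61.3, below the day 0 bar that starts at 124, and the bars of *Maf* and *Zeb2* overlap in all 3 groups.

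Among the factors of the Kupffer cell program, *Nr1h3* had group means of 274 normalized counts at day 0, 457 on BDL day 3 and 34.9 on BDL day 14, with a within-group SD of 0.67. Each day 0 library lay between 124 and 459, each BDL day 3 library between 127 and 848 and each BDL day 14 library between 15.4 and 61.3. All BDL day 14 libraries were thus below all others. The mean on BDL day 14 was 7.85-fold lower than at day 0 (log2 ratio -2.97 ± 0.51) and 13.1-fold lower than at BDL day 3 (-3.71 ± 0.51). Of all genes, 4.97% and 0.636% had lower ratios in these comparisons.

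The higher mean of *Nr1h3* at BDL day 3 (log2 ratio 0.74 ± 0.54 against day 0) rested on 1 library. The highest library, at 848 normalized counts, can only be a BDL day 3 library and held 61.9% of the sum of that group. Without it the BDL day 3 mean was 262, the log2 ratio against day 0 was -0.07 ± 0.38, and that of BDL day 14 against BDL day 3 was -2.91. The lower level on BDL day 14 thus did not depend on that library.

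*Rxra*, the partner of LXRα, had means of 121, 205 and 89.2 normalized counts and a within-group SD of 0.56. Its libraries lay between 43.2 and 223 at day 0, 62.0 and 294 at BDL day 3, and 30.8 and 174 on BDL day 14, so overlap was possible in each comparison. The log2 ratio was 0.76 ± 0.46 at BDL day 3 against day 0, -0.44 ± 0.43 on BDL day 14 against day 0 and -1.20 ± 0.43 between the BDL days. The first and the last were larger than the SD. The highest library (293) was again of BDL day 3, and its removal left log2 ratios of 0.41 against day 0, which is within 1.5-fold, and -0.85 between the BDL days. *Rxra* was thus lower on BDL day 14 than *Nr1h3* was by far less, at 2.30-fold against 13.1-fold from BDL day 3.

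*Spic* had means of 109, 96.7 and 35.8 normalized counts and a within-group SD of 0.48. Its libraries lay between 42.5 and 164 at day 0, 43.3 and 164 at BDL day 3, and 17.1 and 60.5 on BDL day 14. The day 0 and BDL day 3 means differed by less than the SD (log2 ratio -0.17 ± 0.39). The BDL day 14 mean was 3.04-fold below day 0 (-1.61 ± 0.37) and lower than at BDL day 3 by -1.43 ± 0.37 on the log2 scale. Its highest library (163) can be of day 0 or of BDL day 3. Taken out of day 0, it left a BDL day 14 ratio of -1.20 against day 0. Taken out of BDL day 3, it left -0.83 between the BDL days and -0.78 ± 0.20 at BDL day 3 against day 0, which is past 1.5-fold and larger than the SD.

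*Spi1*, the factor common to macrophages, monocytes, neutrophils and B cells, had means of 200, 397 and 188 normalized counts and a within-group SD of 0.30. Libraries lay between 112 and 304 at day 0, 217 and 458 at BDL day 3, and 103 and 296 on BDL day 14. The BDL day 3 mean was 1.99-fold above day 0 (log2 ratio 0.99 ± 0.25) and 2.11-fold above BDL day 14 (-1.08 ± 0.23 for BDL day 14 against BDL day 3), each larger than the SD. Day 0 and BDL day 14 differed by less than the SD (-0.09 ± 0.23). Its highest library (458) was of BDL day 3, and the ratios without it were 0.87 and -0.96.

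*Irf8* had means of 111, 209 and 182 normalized counts and the smallest within-group SD of the 9, 0.14 (0.00 to 0.24 given the rounding of the table). Libraries lay between 78.7 and 147 at day 0, 139 and 250 at BDL day 3, and 127 and 250 on BDL day 14. Although these single limits touch, the values that would let a day 0 library reach one after BDL cannot occur together. *Irf8* was 1.88-fold above day 0 at BDL day 3 (log2 ratio 0.91 ± 0.12) and 1.64-fold above it on BDL day 14 (0.71 ± 0.11). Its highest library (250) may be of either BDL day. If it was of BDL day 14, the ratio at that time was 0.52 without it, within 1.5-fold.

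*Maf* went the other way at BDL day 3, with means of 149, 86.3 and 137 normalized counts and a within-group SD of 0.40. Its libraries lay between 63.5 and 202 at day 0, 42.3 and 140 at BDL day 3, and 60 and 202 on BDL day 14. The BDL day 3 mean was 1.73-fold below day 0 (log2 ratio -0.79 ± 0.33) and below BDL day 14 (0.67 ± 0.31 for BDL day 14 against BDL day 3), both larger than the SD. Without its highest library (202), the first ratio was -0.51 if that was a day 0 library, and the second 0.42 if it was of BDL day 14, both within 1.5-fold.

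*Zeb2* varied least, with means of 94.0, 78.2 and 91.3 normalized counts, a within-group SD of 0.28 and libraries between 53.2 and 120 over all groups. Its log2 ratios were -0.27 ± 0.23, -0.04 ± 0.21 and 0.22 ± 0.21, each smaller than the SD.

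The inflammatory factor *Cebpb* had means of 115, 104 and 43.4 normalized counts and a within-group SD of 0.59. Its libraries lay between 32.7 and 156 at day 0, 29.7 and 156 at BDL day 3, and 13.4 and 88.3 on BDL day 14, so the groups could overlap. The BDL day 14 mean was 2.65-fold below day 0 (log2 ratio -1.41 ± 0.45) and below BDL day 3 by -1.26 ± 0.45 on the log2 scale, both larger than the SD. Its highest library (155) can be of day 0 or of BDL day 3, so 1 of these ratios changes without it. It was -1.13 against day 0 in the former case, or -0.85 against BDL day 3 in the latter.

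*Bhlhe40*, which sustains proliferation of some resident macrophages, had means of 24.1, 48.0 and 38.5 normalized counts, the lowest of the 9 at day 0 and BDL day 3, and the widest within-group SD, 0.76. Its libraries lay between 5.87 and 49.5 at day 0, 8.95 and 77.0 at BDL day 3, and 8.88 and 77.0 on BDL day 14. The log2 ratio of 0.99 ± 0.62 at BDL day 3 was larger than the SD, and that of 0.68 ± 0.58 on BDL day 14 was not. The highest library (76.9) can be of either BDL day, and without it the ratio against day 0 was 0.48 if it was of BDL day 3 or 0.09 if it was of BDL day 14. In the latter case the log2 ratio between the BDL days went from -0.32 to -0.90, past 1.5-fold.

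Per kilobase of all annotated exons of a gene, a rough basis for comparing genes, *Nr1h3* was the most abundant at day 0 (109 normalized counts per kb). It was so at BDL day 3 too (182). At BDL day 14 its level was 13.9 per kb and it was behind 5 of the others. *Spi1* stood at 74.2, 147 and 69.8 per kb and was the highest on BDL day 14. *Cebpb* (76.5, 69.1 and 28.9) followed, and at day 0 it was level with *Spi1*. *Spic* (28.4, 25.2 and 9.32), *Rxra* (22.2, 37.5 and 16.3), *Maf* (18.1, 10.5 and 16.6) and *Irf8* (15.7, 29.6 and 25.8) formed a middle range. *Bhlhe40* (5.12, 10.2 and 8.18) and *Zeb2* (4.71, 3.92 and 4.58) were the lowest in each group. The exon lengths ran from 1504 bases for *Cebpb* to 19942 for *Zeb2*. They can exceed the length of any single transcript, so the order of the genes is approximate.

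**Figure D3:**
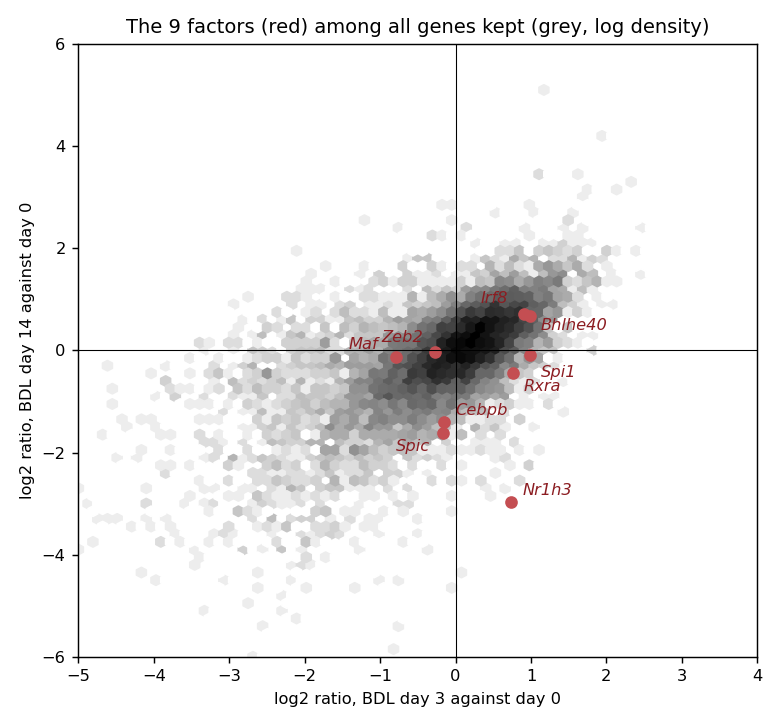
Log2 ratios at BDL day 3 (x axis) and BDL day 14 (y axis) against day 0 for the 9 factors (red) and all 12889 genes kept (grey, darker where genes are denser, log density). Most genes lie along the diagonal of the axes, which share the day 0 group, and *Nr1h3*, at 0.74 and -2.97, lies at the sparse lower right edge.

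By the distance between the pairs of log2 ratios against day 0, over the 3 group means, the genes most like *Nr1h3* were *R74862* and *Fcna*, a ficolin of Kupffer cells with means of 1630, 2930 and 217 normalized counts. For *Nr1h3* only 1 gene lay within 0.1 log2, against 98 for *Zeb2*, 55 for *Irf8* and 50 for *Bhlhe40*. The nearest genes were *Nkiras1* and *Sap25* for *Spic*, *B430306N03Rik* and *Retsat* for *Spi1*, and *Cd40* and *Eif2ak4* for *Rxra*. For *Cebpb* they were *Rasgrp1* and *Oas1a*, for *Maf* *Zfp280d* and *Arhgef7*, for *Zeb2* *Vps37a* and *Pnrc2*, for *Irf8* *Dhx29* and *Commd7*, and for *Bhlhe40* *Ift27* and *Trappc9*. This likeness rests on 3 means and was not tested.

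The known target genes of LXR and RXR did not all move with *Nr1h3*. Beside the counts of this and later lists stand the shares of all genes past 1.5-fold. Against day 0 these were 19.2% higher and 29.2% lower at BDL day 3, and 21.2% and 28.8% on BDL day 14. Between the BDL days they were 21.2% and 19.7%. They include the genes of low counts described above. At BDL day 3, 13 of 13 listed targets were past 1.5-fold above day 0 (median log2 ratio 1.06). At BDL day 14, 8 of 13 were higher and 3 lower (median 0.75). *Scd2*, a fatty acid desaturase, had means of 22.4, 94.7 and 83.6 normalized counts and was shown not to overlap day 0 at either time. *Apoe*, a lipoprotein component, had 7330, 15300 and 22500, with a log2 ratio of 1.62 ± 0.28 on BDL day 14. Lower on BDL day 14 were *Cd5l*, a secreted protein of tissue macrophages (2620, 7440 and 691), *Pltp*, which transfers phospholipids (609, 1110 and 279), and *Scd1*. These 3 were also the targets past 1.5-fold lower on BDL day 14 than at BDL day 3, and each was shown not to overlap it.

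Of 8 genes of heme and iron handling listed with SPIC, 5 were higher at BDL day 3 (median log2 ratio 0.84), and 1 was higher and 4 were lower on BDL day 14 (median -0.54). After quantile normalization 3 were higher at BDL day 3. *Hmox1*, heme oxygenase, had means of 606, 3140 and 840 normalized counts and was shown not to overlap between BDL day 3 and either other group. *Slc48a1*, a heme transporter, was the only one past 1.5-fold higher on BDL day 14 (87.2, 287 and 194). *Cd163*, the receptor for hemoglobin bound to haptoglobin, had 413, 624 and 206, and *Blvrb*, a biliverdin reductase, had 282, 405 and 180. Between the BDL days 6 of the 8 were lower and 0 higher.

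Of 15 genes known to need PU.1, 9 were higher at BDL day 3 and 0 lower (median log2 ratio 0.65), and on BDL day 14 4 were higher and 0 lower (median 0.10). After quantile normalization 2 were higher and 1 lower at BDL day 3. *Itgam*, an integrin of myeloid cells, had means of 44.4, 99.5 and 220 normalized counts. *Cybb*, of the phagocyte oxidase, had 219, 405 and 532 and was shown not to overlap between day 0 and BDL day 14. *Csf3r* (55, 40.3 and 36.8) and *Mrc1* (385, 390 and 306) had the lowest ratios and were within 1.5-fold. The medians of these genes and the means of *Spi1* thus were higher at BDL day 3 and near day 0 on BDL day 14.

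Of 6 inflammatory C/EBPβ targets kept of 7 listed, 5 were past 1.5-fold lower at BDL day 3 (median log2 ratio -1.03) and 4 on BDL day 14 (median -1.08). Without the highest library of each gene, where it could be placed, these counts were 3 and 2. *Saa3*, an acute-phase protein, had means of 87.8, 18.4 and 19.1 normalized counts. *Il6* was low throughout (3.81, 2.96 and 0.266) with a within-group SD of 1.75, and *Ptgs2* likewise (2.79, 1.29 and 1.87). *Arg1* had 116, 69.8 and 157, a BDL day 14 log2 ratio of 0.44 ± 0.68. *Cebpb* itself was lower only on BDL day 14.

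**Figure D4:**
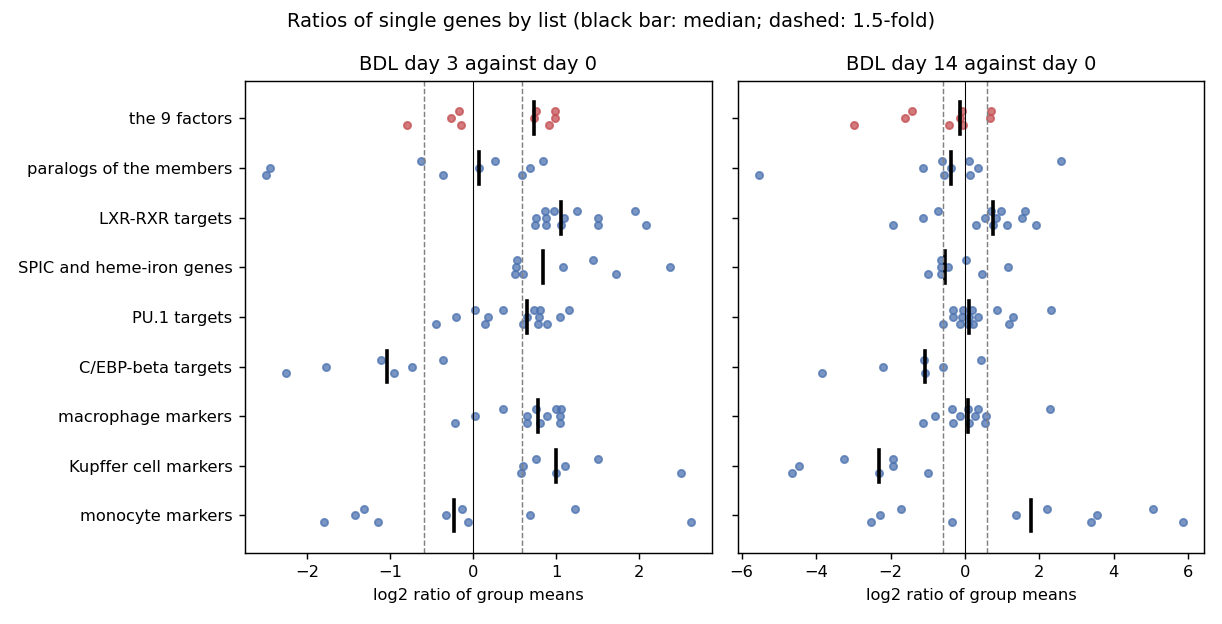
Log2 ratios against day 0 of single genes (points) at BDL day 3 (left) and BDL day 14 (right), by list, with the median (black bar) and dashed lines at 1.5-fold. All 13 LXR-RXR targets lie right of the line at BDL day 3, and the 7 Kupffer cell markers lie right of zero there and left of the lower line on BDL day 14.

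Close relatives did not follow the factors as a group. Of 9 relatives kept of 10 listed, 3 were higher and 3 lower at BDL day 3, and 1 was higher and 3 were lower on BDL day 14 (medians 0.07 and -0.38). After quantile normalization 1 was higher at BDL day 3. *Nr1h2*, which encodes LXRβ, had means of 34.0, 35.8 and 23.2 normalized counts, with a BDL day 14 log2 ratio of -0.55 ± 0.50 beside -2.97 for *Nr1h3*. *Cebpa* had 108, 163 and 137, and *Zeb1* had 24.8, 4.41 and 11.3. *Spib*, a factor of B cells, had 11.9, 2.19 and 0.255 and was the only relative with groups shown not to overlap, on BDL day 14 against day 0. *Bhlhe41* was below 4 normalized counts in each group (0.63, 1.13 and 3.78) with an SD of 1.60.

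Markers of macrophages and Kupffer cells moved with some of these factors and not with others. Of 12 macrophage markers 9 were higher and 0 lower at BDL day 3 (median log2 ratio 0.78, summed means 14869 at day 0, 26560 at BDL day 3 and 22567 on BDL day 14), beside 0.99 for *Spi1* and 0.91 for *Irf8*. After quantile normalization 5 were higher and 1 lower. At BDL day 14, 1 of the 12, *Lyz2*, was higher and 2 were lower (median 0.09), beside -0.09 for *Spi1* and 0.71 for *Irf8*. Unlike the median of the macrophage markers, *Maf* (-0.79), *Zeb2* (-0.27) and *Cebpb* (-0.15) had negative log2 ratios at BDL day 3. Of 7 Kupffer cell markers 6 were higher at BDL day 3 (median 1.00, beside 0.74 for *Nr1h3* and -0.17 for *Spic*). On BDL day 14, 7 of 7 were lower, with a median of -2.30 beside -2.97 for *Nr1h3* and -1.61 for *Spic*. Their summed means were 10227, 22513 and 1547, and *Clec4f*, a lectin of Kupffer cells, had 4610, 6890 and 185. Their groups were shown not to overlap for 4 of 7 against day 0 and 6 of 7 against BDL day 3. Of the Kupffer cell markers 2 (*Cd5l* and *Cd163*), and of the macrophage markers 6 of 12 (*Csf1r*, *Cd68*, *Fcgr1*, *Tyrobp*, *Mrc1* and *Mertk*), are also counted among the targets above.

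Of 10 monocyte markers 6 were higher and 3 lower on BDL day 14 (median log2 ratio 1.79, summed means 532, 472 and 2007). *Chil3* had means of 14.7, 90.4 and 858 normalized counts and *F13a1* 10.0, 23.5 and 334, whereas *Plac8* (228, 218 and 46.9) was lower. Dendritic cells and B cells also use *Irf8*. Of 7 dendritic cell markers kept of 8, 6 were lower at BDL day 3 and 4 were higher and 3 lower on BDL day 14 (summed means 46.5, 40.7 and 87.4, of which *Itgax* held 6.71, 27.0 and 65.5), and 6 of 6 B cell markers were lower at each BDL day (196, 52.5 and 22.3). Neutrophils use *Spi1* and *Cebpb*, and of 7 of their markers 5 were lower at BDL day 3 and 7 on BDL day 14 (497, 229 and 127).

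Stellate cell markers were lower for 8 of 8 at each BDL day, with summed means of 499, 19.6 and 77.9. Hepatocyte markers were lower for 7 of 9 at BDL day 3 and 9 of 9 on BDL day 14 (3050, 889 and 391), T and NK cell markers for 7 and 8 of 8 (130, 38.0 and 9.4). Sinusoidal endothelial cells also express *Maf*, and 7 of 8 of their markers were lower at BDL day 3, whereas on BDL day 14 2 were higher and 2 lower (1176, 637 and 1544). The sum of these endothelial markers was lowest at BDL day 3, as *Maf* was. Sums of the stellate, progenitor and biliary, dendritic cell and monocyte markers were lowest at that time too. Progenitor and biliary markers were lower for 8 of 8 kept at BDL day 3 and 6 of 8 on BDL day 14 (550, 209 and 843, of which *Spp1* held 459, 175 and 792). *Spp1* was the only 1 of them past 1.5-fold higher on BDL day 14, so the higher sum at that time rests on it. Of 8 proliferation markers, 1 was higher and 3 lower at BDL day 3, and 3 were higher on BDL day 14 (141, 141 and 162). Bulk RNA does not give the cell type that each of the 9 factors came from, hepatocytes included. The part of these cell types in the results for the 9 factors was not tested.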

How the data were processed

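Poly(A)-selected RNA of sorted GFP(+) mouse liver cells was sequenced. The authors trimmed reads in Partek Flow, aligned them with STAR to mm10 (the submitters' processing notes give STAR 2.6.1d, and the study's methods another version), counted them on GENCODE M18 and normalized them by the upper quartile. The deposited signal values are the authors' least squares mean of these normalized counts for each group, and the sum, highest library, geometric and arithmetic mean over 10 libraries. The deposited p-values, FDR, ratios, fold changes and 95% limits of the authors' own comparisons were not used. There were 0 columns of single libraries, so depth per library is unknown, no counting error is given, and the planned comparison of means has no test across genes.

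Group sizes of 3, 3 and 4 gave back the authors' mean within 0.469% (99th percentile), and the next best sizes tried within 9.44%. The study left out 2 of the 6 BDL day 14 libraries, which its text does not name. The study counts the libraries of each group as male and female mice.

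Genes with normalized counts summing to at least 10 were kept (2 repeated symbols dropped), and ratios of means past 1.5-fold were counted with Python 3.11.15, NumPy 2.4.6 and pandas 2.3.3. The within-group SD (7 residual degrees of freedom), the limits on libraries, the non-overlap calls and the placing of the highest library in each possible group were added after seeing the data and tested on simulated data. Gene positions and exon lengths come from GENCODE M21, whose lower gene coordinates, on either strand, match the table for the 9 factors.

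The 9 factors and all lists were chosen with earlier results of these data known. The text names the 9 factors, from each target, relative and regulator list the 2 genes with the highest and the 2 with the lowest ratio at BDL day 14 against day 0, and the 2 genes nearest each factor in pattern. Named beyond that rule, after their values were seen, are *Scd1*, *Nr1h2*, *Klf2*, *Id3* and *Batf3*, and single markers of the lists that check the label. The values of 2 list genes are not reported here. Alternatives were dropping the filter, a mean of at least 10, a pseudocount of 1 or 0.1, median-ratio scaling, quantile normalization, a 2-fold threshold and leaving out the highest library.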

Additional observations from a re-analysis of the deposited data

How the results depend on the processing

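No paired analysis was possible because the table holds group means only and the labels give no number shared by libraries of different groups. Single libraries could not be left out in turn, except the highest of each gene where only 1 group can hold it (4974 genes, 38.6%, and 3 of the 9 factors). Without it, *Nr1h3* at BDL day 3 against day 0 turned to -0.07, the median of the 9 factors was also -0.07, and 3 factors were higher rather than 5. Quantile normalization, which moved the median of all genes by 0.14 in each comparison against day 0, left 2 factors higher at BDL day 3. Median-ratio scaling moved it by at most 0.03. At a 2-fold threshold 0 factors were higher and 0 lower at BDL day 3, 0 higher at BDL day 14, and 0 higher between the BDL days. These counts come from means with no test behind them, so no unadjusted p can be set beside a 0. Over the factors' ratios, 147 of 159 values under an alternative moved by less than the within-group SD and 11 by more, and 1 ratio past 1.5-fold (*Nr1h3*, above) changed sign. This tally is no measure of stability, because many of its values could hardly move. Where the highest library could lie in more than 1 group, the setting without it repeats the main ratio. A pseudocount of 1 or 0.1 is small beside the factors' means. Of the ratios within 1.5-fold, 6 values changed sign. *Irf8* between the BDL days went from -0.20 to 0.02 under quantile normalization, more than its SD, and the other 5 came from leaving out the highest library and moved by less than the SD.

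Of all genes, 6139 were lower at BDL day 3 without the filter (3760 with it), 5706 lower at BDL day 14 (3707), and 4452 higher between the BDL days (2733). With a mean of at least 10 the counts fell to 1096 lower at BDL day 3, 1709 higher and 1265 lower at BDL day 14, and 1030 higher and 1271 lower between the BDL days, and at 2-fold to 960 higher at BDL day 3, 1259 higher at BDL day 14, and 1688 higher and 1297 lower between the BDL days. Summed over the lists, a mean of at least 10 left 41 genes lower at BDL day 3 (77 before) and 54 at BDL day 14 (86), and a 2-fold threshold left 20 higher at BDL day 3 (46) and 25 at BDL day 14 (39). Of the counts of single lists, 779 of 864 under an alternative stayed within 1.5 times their value. A smaller set of genes or a higher threshold can only lower such counts. With a mean of at least 10 they fell unevenly by direction. At BDL day 3, 1672 genes stayed higher (2474 before), so that higher genes then outnumbered the 1096 lower ones. At BDL day 14 the same held, and between the BDL days lower genes came to outnumber higher ones. *Bhlhe40* has the widest SD of the 9 factors, so its group means are the least precise.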

Other observations

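Among 36 other regulators of macrophages, 2 were past 1.5-fold higher and 8 lower at BDL day 3, and 8 were higher and 13 lower at BDL day 14 (medians -0.10 and -0.15). *Irf7*, a factor of the interferon response, had the lowest ratio at BDL day 14 but for *Gata6*, and its means were 473 at day 0, 475 on BDL day 3 and 64.7 normalized counts on BDL day 14 (log2 ratio -2.87 ± 0.28 against day 0). *Klf2*, which restrains inflammatory genes, had 195, 152 and 38.8, *Id3*, an inhibitor of basic helix-loop-helix factors that Kupffer cells need, had 287, 275 and 101, and *Batf3*, a factor of dendritic cells, had 32.6, 28.8 and 7.22. These 4 had BDL day 14 libraries shown to lie below those of day 0 and of BDL day 3. *Gata6*, the factor of peritoneal macrophages, had the lowest ratio at that time, with means of 5.65, 0.196 and 0.437 (-3.69 ± 1.09) and a within-group SD of 1.43. *Rbpj*, the DNA-binding partner of Notch, had 9.86, 9.91 and 35.6 (1.85 ± 0.42), and *Pparg*, a nuclear receptor for lipids, had 6.90, 11.9 and 18.3 (1.41 ± 0.39), with overlap of the groups left possible for both.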
